A study of Mus musculus with 9 samples.

Results

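Camta1 (ENSMUSG00000014592.20) is a gene on the minus strand of mouse chromosome 4, and its GENCODE body spans chr4:150917322-151861876 on GRCm38 (mm10), a length of 945 kb. The regions described here were selected on the comparison of MMS with control. They are the rows of the deposited list of differentially methylated regions (DMRs) that overlap this body or the 10 kb on either side, 17 of 12949 listed DMRs. Below they are called R1 to R17 in the order of transcription. The gene itself was taken up because many listed DMRs lie in it, so their number is given as a description and not as a result.

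The study applied modified maternal separation (MMS) to C57/Bl6 pups, for 1.5 h per day from postnatal day 4, and took the hypothalamus on postnatal day 6. During the separation MMS pups were turned onto their backs each time they rolled over. Control pups were not separated in this way. Males within a litter were assigned at random to control or MMS, and tissue was taken directly after the last session. DNA of 10 males per group was combined into 3 pools, which gave 3 control and 3 MMS libraries of methylated DNA immunoprecipitation (meDIP), so the spread between single animals was not measured. The 2 input libraries and 1 IgG library entered the authors' peak calling or controls, and no separate analysis of them was made here. According to the paper, each group was normalised to its own pooled input, and an IgG control was used in a subtraction. Whether the deposited group means carry these steps is not known. If they do, a difference between groups also depends on a single input library per group.

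CAMTA1 is a calmodulin-binding transcription activator of neurons. It carries a CG-1 DNA-binding domain near its amino end and calmodulin-binding IQ motifs near its carboxyl end, and mutations of the gene are known for cerebellar ataxia and effects on cognition. In meDIP an antibody against methylated cytosine pulls down DNA fragments, and in mammals that mark sits mostly on the cytosine of a CpG dinucleotide. The reads over a region therefore depend on how many CpGs it holds and on how many of them are methylated. Most of a gene body is methylated in the brain, whereas CpG-rich promoters are mostly not.

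Each value below is the log2 of the mean normalised read count over the 3 pools of a group, as the authors deposited it. A difference of 1 is a 2-fold change. The table holds no value for a single pool, so no SD or interval could be computed and no test was made here. The p-values in the table are the authors' own and were not used, and whether the pools of the groups overlap is not known. A listed DMR had passed the authors' own threshold, and regions outside the list were not analysed here. The lowest control mean in the table was -0.17 and the lowest MMS mean was -0.24. A group within 0.5 of its lowest value is called at its lowest, and a difference against it depends on where that value was set.

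The reference sequences of 6 DMRs, whole or in part, show where CpGs lie and not which of them were methylated. R1 and R10 had the smallest and the largest difference among DMRs higher in control, R3 had the smallest difference among DMRs higher in MMS, R7 held the most CpG per 100 bp, R15 lay nearest to an exon of Camta1 and R16 lay in the promoter window of another gene. R7, R15 and R16 were picked once their values were known. The sequences are the plus strand of the GRCm38 reference, 5′ to 3′, with each CpG in capitals. R15 and R16 are whole, at chr4:151073135-151073343 and chr4:150980990-150981177. The others are the central 300 bases, at chr4:151832978-151833277 for R1, chr4:151702287-151702586 for R3, chr4:151463557-151463856 for R7 and chr4:151358222-151358521 for R10.
R1: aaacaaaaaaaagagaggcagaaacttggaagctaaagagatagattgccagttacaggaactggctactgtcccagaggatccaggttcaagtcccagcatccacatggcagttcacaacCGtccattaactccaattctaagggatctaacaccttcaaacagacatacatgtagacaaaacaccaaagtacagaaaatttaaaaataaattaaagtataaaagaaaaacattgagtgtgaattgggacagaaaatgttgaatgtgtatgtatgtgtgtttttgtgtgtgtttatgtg
R3: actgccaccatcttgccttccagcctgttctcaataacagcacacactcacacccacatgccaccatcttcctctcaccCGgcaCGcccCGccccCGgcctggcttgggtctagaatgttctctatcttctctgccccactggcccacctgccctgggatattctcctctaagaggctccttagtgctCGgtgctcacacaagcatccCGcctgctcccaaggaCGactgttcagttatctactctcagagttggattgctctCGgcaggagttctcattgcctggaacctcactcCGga
R7: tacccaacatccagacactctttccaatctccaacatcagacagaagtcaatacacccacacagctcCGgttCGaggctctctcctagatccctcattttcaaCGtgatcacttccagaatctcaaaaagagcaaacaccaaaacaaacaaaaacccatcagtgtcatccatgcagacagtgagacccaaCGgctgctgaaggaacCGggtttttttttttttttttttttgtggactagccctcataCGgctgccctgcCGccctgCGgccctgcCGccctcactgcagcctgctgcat
R10: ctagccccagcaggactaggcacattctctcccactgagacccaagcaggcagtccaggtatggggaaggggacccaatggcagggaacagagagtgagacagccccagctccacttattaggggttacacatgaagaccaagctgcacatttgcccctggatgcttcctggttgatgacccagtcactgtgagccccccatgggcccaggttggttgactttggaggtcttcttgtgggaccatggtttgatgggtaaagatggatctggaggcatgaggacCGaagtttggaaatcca
R15: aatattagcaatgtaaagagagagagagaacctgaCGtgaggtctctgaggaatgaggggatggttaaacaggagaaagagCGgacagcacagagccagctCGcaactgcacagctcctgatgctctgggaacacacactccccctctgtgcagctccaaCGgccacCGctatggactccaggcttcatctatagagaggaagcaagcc
R16: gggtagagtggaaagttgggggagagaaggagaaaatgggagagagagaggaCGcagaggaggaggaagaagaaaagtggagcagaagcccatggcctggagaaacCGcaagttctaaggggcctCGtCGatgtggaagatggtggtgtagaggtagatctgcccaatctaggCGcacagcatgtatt
The stretches of R1 and R10 held 1 CpG each. The stretches of R3 and R7 held 9 each, and R15 and R16 held 5 each.

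Camta1 held DMRs of both directions. The mean was higher in MMS in 6 of the 17 DMRs (35.3%) and higher in control in 11, whereas 62.6% of all 12949 listed DMRs were higher in MMS. Among the 15 DMRs of Camta1 with neither group at its lowest value, 4 were higher in MMS (26.7%), against 45.3% of 8452 such DMRs in the list. With a log2 difference of at least 2, the majority turned, with 5 of 9 higher in MMS (55.6%), against 80.6% of 9053 such DMRs in the list. These directions come from the same contrast that listed the DMRs, and no test was made of either share. In bulk hypothalamus, a change in the mix of cells and a change of methylation within cells cannot be told apart.

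The DMRs higher in MMS differed by 1.42 to 4.39 on the log2 scale, with a median of 2.52, against 3.43 over all DMRs of that direction. Their median level was 1.78 in control and 4.17 in MMS, and over the list these medians were 0.20 and 4.09. The control mean was at its lowest in 2 of the 6, and in 52.7% of the 8105 DMRs of that direction in the list. The DMRs higher in control differed by -3.39 to -1.02, with a median of -1.83, against -1.73 over the list. Their median level was 5.11 in control and 3.04 in MMS, and over the list these medians were 5.13 and 3.33. In none of the 11 was MMS at its lowest, which was also rare in the list (4.6% of 4844). The lowest MMS mean of the 11 was 1.71, so all of them had reads in both groups.

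**Figure D1:**
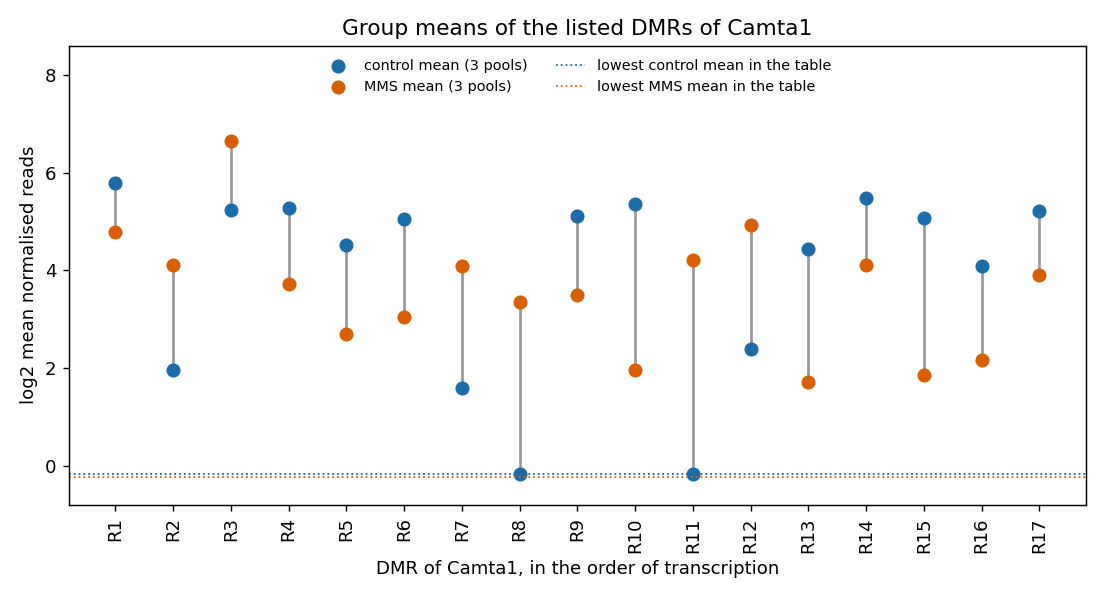
Log2 mean normalised reads (vertical axis) of the control group (blue) and the MMS group (orange) for the 17 listed DMRs of Camta1 in the order of transcription (horizontal axis). A grey line joins the 2 means of a DMR, dotted lines mark the lowest group means of the table, and the control means of R8 and R11 lie on the lowest value of -0.17.

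All 17 DMRs lay in introns, and none touched an exon of any GENCODE or RefSeq transcript of the region. By comparison, 45.7% of all listed DMRs lay in introns, and 80.3% of those in bodies of protein-coding genes. In Camta1-202, the GENCODE transcript with the most exonic bases, 23 exons encode 1675 codons. The exons make up 8533 bp of its 802 kb, so a DMR placed anywhere in it would mostly fall in an intron. Nearly all of the transcript is thus intron. Its introns 3, 4, 5 and 6 together span 666 kb (70.5% of the gene body) and held 13 of the 17 DMRs, 6 of them higher in MMS. These introns interrupt the coding sequence between codon 78 and codon 170, the amino end of the protein. Of the 18 other introns, 16 held none, but all 18 are shorter. The longest of them, intron 11, spans 42.6 kb, against 126 kb for intron 6, the shortest of introns 3 to 6. These counts therefore do not show that DMRs gather in introns 3 to 6 beyond what their length would give.

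R1 lay nearest to the gene's start, at chr4:151832739-151833515 in intron 2 and 28.7 kb from the start of Camta1-202. It stood at 5.80 in control and 4.78 in MMS. The change of -1.02 was the smallest of the gene, between the highest control level of the 17 and an MMS level that only 2 other members exceeded. Repeat sequence made up 65.4% of it, and it held 4 CpGs in 777 bp.

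Intron 3 (244 kb) held 4 DMRs, R2 to R5, 2 in each direction. R2 (chr4:151755923-151756236) stood at 1.96 in control and 4.12 in MMS, a 4.47-fold higher mean read count in MMS. R3 (chr4:151701600-151703272) had the highest MMS level of the gene, with 5.23 in control and 6.65 in MMS. It was also the widest, 1673 bp with 43 CpGs, and both groups had many reads there. R4 (chr4:151696671-151697279) lay 4.3 kb from R3 and went the other way, with 5.28 in control and 3.73 in MMS. R5 (chr4:151684754-151685344) was 11.3 kb further on, at 4.52 in control and 2.69 in MMS, the same direction as R4. R3, R4 and R5 lie within Gm38442, a long noncoding RNA that RefSeq places on the same strand inside the intron, so they cannot be assigned to one gene by position alone.

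Intron 4 (133 kb) held R6 and R7, which differed in direction and in sequence. R6 (chr4:151521798-151522983) stood at 5.06 in control and 3.04 in MMS, a 4.06-fold lower mean in MMS over 1186 bp. R7 (chr4:151463477-151463936) stood at 1.59 in control and 4.09 in MMS, a 5.66-fold higher mean. R7 held 17 CpGs in 460 bp, 3.70 per 100 bp and the highest density of the 17, against 1.10 per 100 bp in R6.

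Intron 5 (163 kb) held 6 DMRs, 3 in each direction, and with 3.68 per 100 kb it was the densest of the 4 long introns. Its DMRs included the largest difference of both directions. R8 (chr4:151390309-151390917) stood at its lowest value of -0.17 in control and at 3.35 in MMS. R9 (chr4:151370732-151371495) stood at 5.11 in control and 3.50 in MMS, and R10 (chr4:151358013-151358729) at 5.36 and 1.97. R10 thus went from 41.1 normalised reads in control to 3.92 in MMS, a 10.5-fold lower mean and the largest difference of the gene in that direction. It held 6 CpGs in 717 bp, and repeats made up 49.4% of it.

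Downstream of R10, intron 5 held 3 more DMRs. R11 stood at -0.17 in control and 4.22 in MMS, which is 18.6 normalised reads in MMS. This was the largest difference of the gene (4.39), in its narrowest DMR, with 1 CpG and with the control mean at its lowest. R12 (chr4:151344222-151345473) lay 2.0 kb from R11, the shortest gap of the gene, and was also higher in MMS, with 2.39 in control and 4.94 in MMS. R13 (chr4:151319939-151320569) was higher in control again, at 4.44 against 1.71. Over these 6 neighbours the direction therefore changed 3 times, with R8, R11 and R12 higher in MMS and R9, R10 and R13 higher in control.

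From R13 to the end of the gene all 5 DMRs were higher in control. R14 (chr4:151195316-151196084), the only one in intron 6 (126 kb), stood at 5.48 in control and 4.12 in MMS and held 20 CpGs. R15 (chr4:151073135-151073343) lay in intron 21, of 2.53 kb, only 749 bp from the nearest exon of Camta1, and stood at 5.07 in control and 1.85 in MMS. Its mean was 9.32-fold lower in MMS, a difference second to that of R10 in this direction, and the 5 CpGs printed above lie within its 209 bp. It was the only DMR of the 17 within 10 kb of a start of a Camta1 transcript, at 6554 bp from an internal one. Counting other genes, 5 more had a start that close.

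R16 (chr4:150980990-150981177) and R17 (chr4:150938032-150938477) belong to Camta1 by 1 GENCODE transcript of 13, Camta1-211, whose long last part reaches past the other transcripts. RefSeq ends the gene at 151059523, so that its 802 kb body held 15 DMRs and these 2 fell outside it. R16 stood at 4.09 in control and 2.17 in MMS, and 82.4% of it was repeat sequence. Its centre lay 195 bp upstream of the start of Gm30120, a RefSeq long noncoding RNA on the minus strand, within the promoter window of that gene (1000 bp upstream to 100 bp downstream). The 4 other starts lay further off, at 5357 bp for R9 (4930589P08Rik), 7561 bp for R7 (Gm30344), 8452 bp for R1 (Gm42357) and 8457 bp for R17 (Tnfrsf9). R17 stood at 5.22 in control and 3.90 in MMS and also lies in Tnfrsf9, which encodes a costimulatory receptor of T cells. That stretch also spans Per3 of the circadian clock, Vamp3 of vesicle fusion and Uts2, which encodes a urotensin peptide, and none of these held a listed DMR.

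**Figure D2:**
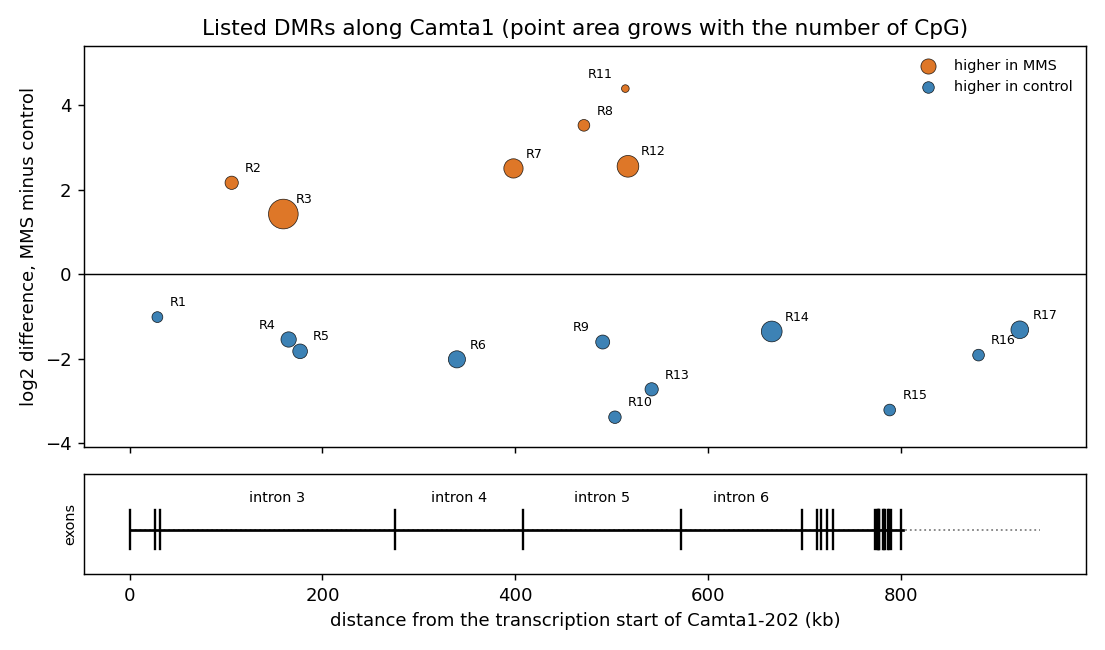
Log2 difference between MMS and control (vertical axis) of the 17 DMRs against their distance in kb from the transcription start of Camta1-202 (horizontal axis), with point area growing with the number of CpGs. The lower strip shows the exons of Camta1-202 as ticks and the part reached by Camta1-211 alone as a dotted line, and the DMRs higher in MMS (orange) all lie in introns 3, 4 and 5.

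Neighbouring DMRs lay a median of 47.6 kb apart, from 2.0 kb between R11 and R12 to 161.8 kb between R5 and R6. At most 6 fell within 100 kb. Of the 16 neighbouring pairs, 10 had the same direction and 6 the opposite one. Of the 8 pairs within 50 kb, 4 had the same direction, while among 277 such pairs on the whole of chromosome 4 the share was 54.2%. Close neighbours of opposite direction included R3 and R4 (4.3 kb apart) and R10 and R11 (10.4 kb apart).

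The start of the gene held no listed DMR. A shorter stretch round the RefSeq start of Camta1, 250 bp before to 50 bp after it (chr4:151861719-151862018, minus strand), holds 28 CpGs in 300 bp, or 9.33 per 100 bp, and its GC content is 68.3%. The nearest DMR, R1, lay 28.2 kb from it. None of the 11 CpG islands found in the gene body and its flanks (GC of at least 55% and an observed to expected CpG ratio of at least 0.65 over 500 bp) was touched. The nearest approach was 4523 bp, for R9. No row fell in the 10 kb on either side. The first listed DMRs outside were 80.6 kb beyond the 3′ end of the gene (chr4:150836562-150836770, 5.89 in control and 4.85 in MMS) and 162.5 kb upstream of its start (chr4:152024341-152024633, -0.17 in control and 3.60 in MMS).

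The CpG content of the 17 DMRs was slightly above that of the gene body. They held a median of 1.64 CpG per 100 bp, against a median of 1.32 in all listed DMRs. The whole gene body averaged 1.44. Together they cover 11366 bp, or 1.20% of the body, and hold 196 CpGs, or 1.44% of its 13614. In 500 bp around their centres the median was 1.4 per 100 bp, against 1.2 in all such windows of the body. The median was 1.99 in the 6 DMRs higher in MMS and 1.52 in the 11 higher in control, with both directions spread over nearly the same range, 0.585 to 3.70 and 0.515 to 3.14. Median GC content was 51.4% and the median repeat share 13.4%, against 47.4% and 20.6% over the list.

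**Figure D3:**
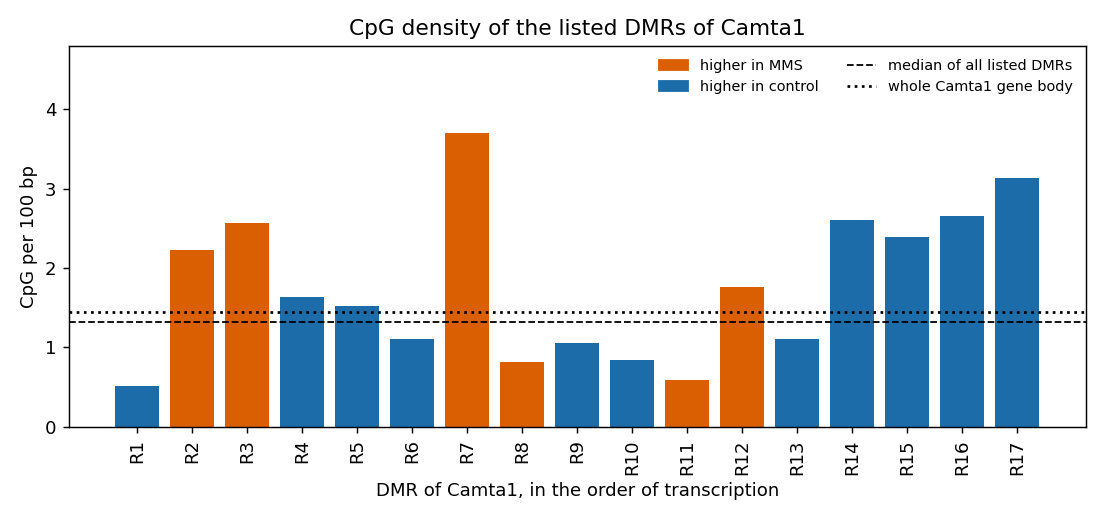
CpG per 100 bp (vertical axis, bars from 0) of the 17 DMRs in the order of transcription, coloured by direction, with the median of all listed DMRs (dashed) and the value of the whole gene body (dotted). R7 is highest at 3.70 and R1 lowest at 0.515, and both colours stand above and below the lines.

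Across the 17 DMRs the mean level over all 6 libraries rose with width (Spearman's rho 0.61, Pearson's r 0.62) and with the number of CpGs (rho 0.40, r 0.59). Taken with its sign over both directions, the log2 difference did not follow CpG density (rho -0.02, r 0.03). No correlation of its size was computed within a direction. Among DMRs higher in MMS, the largest differences (R11 and R8) came with 0.585 and 0.821 CpG per 100 bp. In both of these the control mean was at its lowest. Among those higher in control, the largest (R10 and R15) came with 0.837 and 2.39. These values are descriptions over regions of the same 6 libraries, which share their depth. Reads were counted over the whole width of a region. Each DMR aligned to its own place as the only full match in the reference assembly. At 95% identity over at least 100 bp, R8 alone had matches elsewhere, 2 of them and the longest 104 bp of its 609 bp.

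The density of DMRs in the gene was 1.80 per 100 kb, against 0.528 on chromosome 4 and 0.522 over the autosomes. Of 250 other protein-coding genes with 0.5 to 2 times its length, the median held 2 DMRs (0.272 per 100 kb). The highest count among them was 14, in Smyd3, which encodes a lysine methyltransferase, and Smyd3 alone was denser, with 2.47 per 100 kb over 566 kb. Next came Wwox, an oxidoreductase with WW domains, with 13, and Ctnna3, an alpha-catenin, with 12. Both directions were present in all 3, with 7 of 14 higher in MMS in Smyd3, 5 of 13 in Wwox and 6 of 12 in Ctnna3. Over all 250 genes, 67.0% of 718 DMRs were higher in MMS. Of all 21938 protein-coding genes, 2 held more DMRs than Camta1, both in longer bodies, Gm20388 with 56 and Fgfr2 with 19. Among 29 other protein-coding genes with 8 or more DMRs, 7 were denser than Camta1, and 2 had a lower share higher in MMS than Camta1, Ldlrad4 with 2 of 9 and Mast4 with 3 of 9. Camta1 was chosen for its number of DMRs, so its place among these genes follows from the choice and carries no test.

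**Figure D4:**
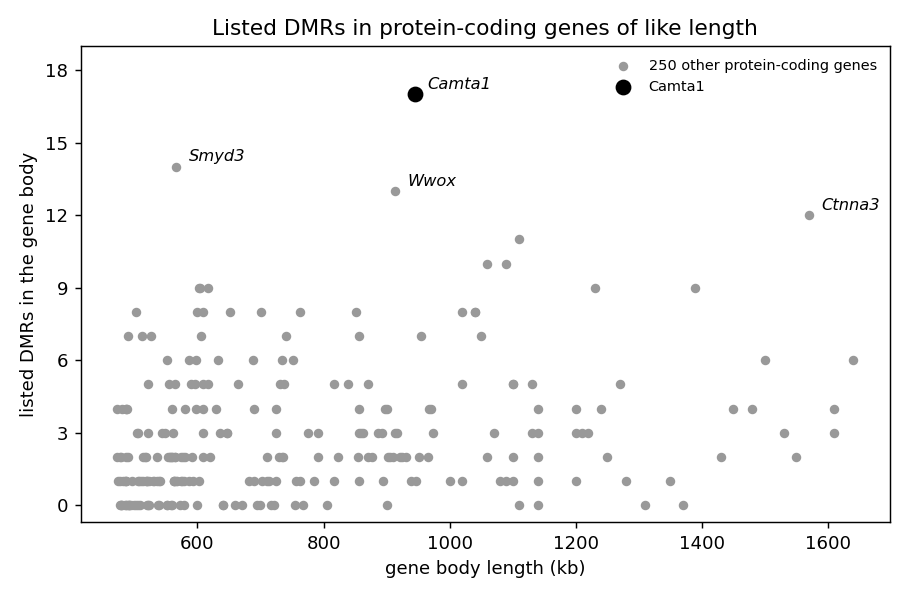
Listed DMRs in the gene body (vertical axis) against gene body length in kb (horizontal axis) for Camta1 (black) and 250 other protein-coding genes of 0.5 to 2 times its length (grey). Camta1 stands at 17 DMRs, above Smyd3 at 14, Wwox at 13 and Ctnna3 at 12.

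Listed DMRs were also counted in genes related to Camta1 by family or protein partners, or near its 3′ end, with the family of the neighbouring Per3. The list was the family member Camta2, the calmodulin genes Calm2, Calm3 and Calm4, the calmodulin-like Calml3 and Calml4, Nkx2-5 (a transcription factor that partners CAMTA2), the class IIa histone deacetylases Hdac4, Hdac5, Hdac7 and Hdac9, the clock genes Per1, Per2 and Per3, and Vamp3, the last 2 lying in the stretch of Camta1-211. Of these 15 genes, 4 held DMRs (26.7%), and of all 21938 protein-coding genes 18.9% did. No test was made of so short a list, and gene length was not matched. Calm3 held 1 in an intron (chr7:16922914-16923458), at 1.59 in control and 4.00 in MMS. Hdac4 held 1 at its transcription end (chr1:91928617-91928944), at 4.52 in control and 1.69 in MMS, and Hdac7 held 1 at a promoter (chr15:97815071-97815802), at 6.18 and 4.79. Hdac9 held 5 in introns, 3 higher in control and 2 higher in MMS, so like Camta1 it carried both directions.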

How the data were processed

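MeDIP libraries of 3 control and 3 MMS pools were compared. The authors used Torrent Suite for alignment (mm10), MACS2 for broad peaks against the inputs, and DiffBind with DESeq2 and edgeR for the group comparison. The authors named the table for DESeq2, but its number of rows is the total their paper gives for edgeR, so which of these listed the DMRs is unsettled. The deposited log2 values are mean normalised reads over all 6 libraries, over control (column untreated) and over MMS (column treated). Whether the input normalisation and IgG subtraction named in the paper entered these values is not known. The deposited fold, p-value and FDR columns are the authors' comparison and were not used. The table does not give library depths. The labels name the methylcytosine antibody for inputs and IgG too, so these were known by their titles.

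Direction and difference (MMS minus control) were taken from the group means. No test between groups was made, because no value per library was used. All positions lay within GRCm38 chromosome lengths. Features came from GENCODE vM21 by the centre of each DMR (promoter 1000 bp upstream to 100 bp downstream), with RefSeq beside it. Starts and exons of other genes in the region were added after seeing the data. CpG, GC content and repeats (soft-masked bases) were read from the same assembly, and scripts were tested on simulated data. Alignments used BLAST 2.17.0, with Python 3.11.15, numpy 2.4.6, pandas 2.3.3 and matplotlib 3.10.9. The members, the related genes and the comparison genes (the 3 of like length with the most DMRs) were chosen with earlier results of these data known. Sequences were named by the largest and smallest difference in each direction, with 3 added after seeing the data, and 2 items of these lists are not reported here. Alternatives changed the gene span, minimum difference, width, lowest value, features and CpG window. No tissue marker could be checked, since the table holds no expression values.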

Additional observations from a re-analysis of the deposited data

How the results depend on the processing

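Of 30 alternatives over 10 results, 29 left the value within 1.5 times of that reported. The exception came with a log2 difference of at least 2. There 4 of the 11 DMRs higher in control stayed, beside 5 of the 6 higher in MMS. The majority of the gene thus turned to MMS. Several of the 29 could not have moved a value, since no DMR lay in the flanks, no gap was under 1 kb and no difference was under 1. The median differences were taken within each direction, so their sign could not reverse. The RefSeq span of the gene held 15 DMRs, of which 6 had the higher mean in MMS and 9 in control, an alternative added for the directions after seeing the data. Leaving out DMRs with a group at its lowest value moved the median difference of those higher in MMS from 2.52 to 2.33, and adding 1 read to each mean moved it to 2.26. No paired analysis was possible because the values are group means and no result comes from a test. For the same reason no pool could be left out in turn. With 3 pools per group and no value per pool, the error of each difference is unknown, and meDIP gives regions rather than single CpGs.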
